A study of Mus musculus with 4 samples.

Results

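RNA of CDK1, the kinase that drives cells into mitosis, and of 9 cyclin, phosphatase and inhibitory kinase genes was compared in sorted mouse pancreatic β-cells. The 10 genes are Cdk1, the cyclin genes Ccna2, Ccnb1, Ccnb2 and Ccnf, the phosphatase genes Cdc25a, Cdc25b and Cdc25c, and the inhibitory kinase genes Wee1 and Pkmyt1. They were taken by symbol from a deposited table of raw read counts with 23420 rows, where all 10 were found. The groups are labelled Bmal1KO/DTA and Bmal1+/-DTA (the second called Bmal1Het in the sample titles), with 2 libraries each. Both groups carried DTA, a toxin transgene, and both received doxycycline for 10 days, and per the series' design text the sorted cells are the β-cells left after ablation; the extent of the loss was not measured here. The drivers of the transgene and of the Bmal1 deletion, the age and sex of the mice, the number of mice per library and the hour of collection were not stated in the labels used here. Every p-value therefore reflects how much these libraries varied, and that variation may be technical.

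The library labels could not be checked by the targeted gene. Arntl, the gene symbol for Bmal1, reached 75.8 and 65.6 CPM in the libraries labelled Bmal1KO, against 23.0 and 14.98 CPM in those labelled Bmal1Het, so its RNA was higher under the KO label. Reads are summed over the whole gene and cannot show whether a deleted stretch is missing. The groups are therefore called by their labels, and higher or lower refers throughout to the KO label against the heterozygous label. CPM here is a gene's count relative to its library's total, in the usual per-million unit, after scaling by TMM, which aligns libraries on the bulk of their genes.

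Counts per library summed to 32819576 and 31056116 for the KO label and to 38020488 and 34776920 for the heterozygous label. The defining β-cell genes were present in every library, with Ins2 alone at 15.5% to 19.5% of the counts; of 9 such genes Ucn3 and G6pc2 fell (log2 fold changes -2.04 and -0.96) and 7 did not pass, while 0 fell without heterozygous replicate 2. Sex-linked RNA differed between the groups, most of all in KO replicate 1. Xist was at 8.67 CPM there and at 38.8 CPM in KO replicate 2, against 72.3 and 67.5 CPM in the heterozygous libraries. The Y-linked gene Ddx3y was at 89.1 and 23.8 CPM in the KO libraries, against 20.5 and 12.1 CPM in the heterozygous ones. Neither gene overlapped between groups, and neither passed (log2 fold changes -1.56 and 1.79, edgeR adjusted p = 0.233 and 0.176). Eif2s3y, also Y-linked, overlapped, at 135.6 and 32.2 CPM against 36.9 and 20.2 CPM. Sex-linked RNA thus partly went with the group label, and its part in the results below was not tested. Markers of other cells also differed between libraries. Summed over 11 stromal markers, the KO libraries held 138 and 376 CPM, against 62.7 and 21.1 CPM in the heterozygous libraries, and Lum, Col1a2 and Pdgfra passed edgeR's test as higher (3 of 9 tested), Pdgfra having 0 counts in both heterozygous libraries. The number of stromal markers called higher was 0 by limma-voom and 0 without heterozygous replicate 2, 4 by DESeq2 and 6 without KO replicate 1. The 9 immune markers in the table summed to 268.9 and 942 CPM in the KO libraries, against 298 and 357 CPM in the heterozygous ones, and 0 of 8 tested passed by edgeR or limma-voom, with 2 higher at an unadjusted p under 0.05 and 1 higher by DESeq2. The 12 acinar markers summed to 174 and 84.8 CPM, against 66.7 and 24.6 CPM, and 0 of 9 tested passed by edgeR or limma-voom, with 3 higher at an unadjusted p under 0.05 and 1 higher by DESeq2; Amy2a5 had 0 counts in all libraries. The 8 markers of other endocrine cells summed to 4201 and 8778 CPM in the KO libraries, against 3643 and 3401 CPM in the heterozygous ones. Of the 7 tested, Irx2 rose by edgeR (2.64) and 6 did not pass. Higher were 4 at an unadjusted p under 0.05, 4 by DESeq2 and 1 by limma-voom. None of 7 duct or 4 endothelial markers passed by edgeR; at an unadjusted p under 0.05, and also by DESeq2, 1 duct marker was lower, 1 was higher and 2 endothelial markers were higher, and limma-voom called 1 duct marker lower and 0 endothelial markers. Nearest to a call in lists with none were Krt7 (duct, log2 fold change -0.68, edgeR adjusted p = 0.0637), Pecam1 (endothelial, 3.21, adjusted p = 0.130), Cd68 (immune, 1.503, adjusted p = 0.148) and Cela1 (acinar, 1.03, adjusted p = 0.196). The part of these markers in the results below was not tested. In bulk samples such as these, fewer dividing cells and less RNA per cell cannot be told apart.

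Cyclins of the A and B types bind CDK1 and switch the kinase on, and their RNA and protein build up from S phase to mitosis. WEE1 and PKMYT1 hold the CDK1 and cyclin complex inactive by phosphorylating CDK1, and the CDC25 phosphatases remove those phosphates at the onset of mitosis. Adult β-cells divide rarely, and their division rate rises when β-cell mass is lost. In mouse liver, Wee1 is known as a gene that BMAL1 and CLOCK drive through E-boxes, which ties the circadian clock to the entry into mitosis.

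The 10 genes fell into a pair of patterns. Cdk1, the 4 cyclin genes and Cdc25c had mean levels in the KO libraries at 16.1% to 27.2% of those in the heterozygous libraries. Cdc25a, Cdc25b, Wee1 and Pkmyt1 had means at 55.2% to 81.0%. By edgeR's quasi-likelihood test on all 14649 genes that passed a filter on low counts, with Benjamini-Hochberg adjustment at a threshold of 0.05, Ccna2, Ccnb1 and Ccnf fell, 0 of the 10 rose and 7 did not pass. Over all tested genes 1.34% were called lower and 1.20% higher, 2.54% in all. None of the 10 was higher at an unadjusted p under 0.05 or by DESeq2 or limma-voom, and 8 were lower at an unadjusted p under 0.05. Many genes meet that cut: Wee1, at an unadjusted edgeR p of 0.0480, ranked 2429 by p among the 14649 tested genes. Numbers at an unadjusted p, here and in every list, are to be read beside that rank. The adjusted p of 4 members lay between 0.05 and 0.1, so the count depends on where the threshold stands. It was 7 by DESeq2, 5 by limma-voom and 7 with no filter on low counts, and 0 without heterozygous replicate 2, where 8 of all genes were called lower. The median log2 fold change was -2.09 over the 10 genes and 0.024 over all tested genes. All 10 had a lower fitted level in the KO libraries, and for 8 of them both KO libraries lay below both heterozygous ones; 23.8% of all tested genes showed such a separation in that direction.

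**Figure D1:**
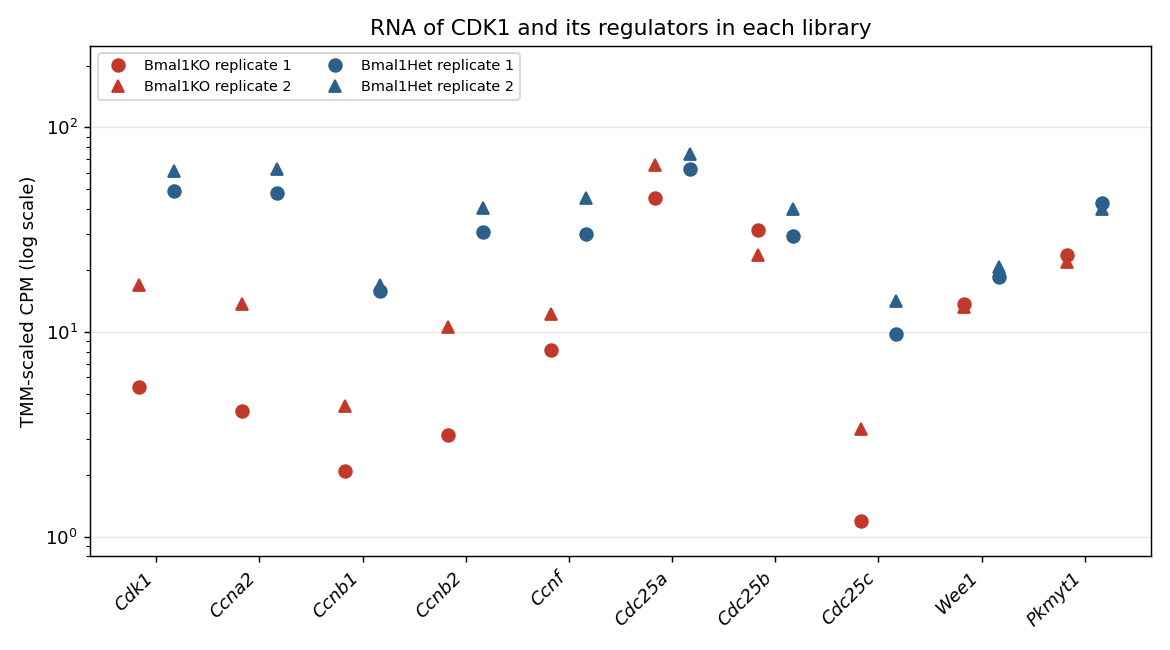
TMM-scaled CPM on a log axis for the 10 genes in each of the 4 libraries, with the Bmal1KO libraries to the left of the Bmal1Het libraries for each gene. The KO libraries lie well below the heterozygous ones for Cdk1, the cyclin genes and Cdc25c, and the groups overlap for Cdc25a and Cdc25b.

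Cdk1 (chromosome 10, 69335146 to 69352938, minus strand, GRCm38, GENCODE M21, 10 merged exon blocks) encodes the mitotic kinase itself. It was at 5.36 and 16.9 CPM in the KO libraries, against 49.1 and 61.4 CPM in the heterozygous libraries. Both KO libraries were low and the groups did not overlap, but the KO libraries differed 3.15-fold from each other. The means were 11.1 ± 8.15 CPM and 55.3 ± 8.70 CPM (SD, n = 2 each), a log2 fold change of -2.31 (SE 0.48, 95% interval -3.45 to -1.18, edgeR adjusted p = 0.0610). Cdk1 thus did not pass, and it did not pass without heterozygous replicate 1 (-2.47, adjusted p = 0.0633) or heterozygous replicate 2 (-2.16, adjusted p = 0.174). It passed without KO replicate 1 (-1.74, adjusted p = 0.0126) and without KO replicate 2 (-3.37, adjusted p = 0.00323), but those fits hold 1 KO library each, so the spread between the KO libraries does not enter them and the lone library is assumed to vary like the heterozygous ones.

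Among the cyclin genes, Ccna2 had the largest drop. Ccna2 (chromosome 3, 36564865 to 36572150, minus strand) encodes cyclin A2, which acts from S phase into early mitosis. It was at 4.11 and 13.7 CPM in the KO libraries, against 48.0 and 62.7 CPM in the heterozygous libraries, and it fell by 2.64 on the log2 scale (SE 0.50, edgeR adjusted p = 0.0481). The call was lost without heterozygous replicate 2 (log2 fold change -2.45, adjusted p = 0.139). Exons of Exosc9 on the opposite strand cover 12.5% of the merged exons of Ccna2, and the library kit does not mark strand, so Exosc9 reads could be counted here.

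Ccnb1 and Ccnb2 encode the B-type cyclins that bind CDK1 in mitosis. Ccnb1 (chromosome 13, 100778650 to 100786570, minus strand) had 69 and 140 counts in the KO libraries, against 617 and 560 counts in the heterozygous libraries. On the scaled level this was 2.10 and 4.37 CPM against 15.9 and 16.9 CPM, and Ccnb1 fell by 2.34 on the log2 scale (SE 0.41, edgeR adjusted p = 0.0358). Leaving out heterozygous replicate 1 gave a log2 fold change of -2.39 (adjusted p = 0.0779) and leaving out heterozygous replicate 2 gave -2.31 (adjusted p = 0.149), so both heterozygous libraries are needed for the call while the size of the difference hardly moved. Ccnb2 (chromosome 9, 70407692 to 70421547, minus strand) was at 3.13 and 10.6 CPM in the KO libraries, against 30.8 and 40.3 CPM in the heterozygous libraries. Its log2 fold change of -2.38 (SE 0.52, 95% interval -3.59 to -1.16) was as large as that of Ccnb1, but its KO libraries differed 3.38-fold and it did not pass (edgeR adjusted p = 0.0683). Ccnb2 passed by DESeq2 (adjusted p = 5.3e-05) and limma-voom (adjusted p = 0.0320), and by edgeR with no filter (adjusted p = 0.0052). With other scalings it did not pass. Both genes have an annotated pseudogene in GENCODE M21, and how reads with several matches were counted is not stated in the labels used here.

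Ccnf (chromosome 17, 24222198 to 24251484, minus strand) encodes cyclin F, which is known from human cells to serve as the substrate-binding subunit of an SCF ubiquitin ligase and not as a CDK activator. It was at 8.13 and 12.3 CPM in the KO libraries, against 29.99 and 44.96 CPM in the heterozygous libraries. Ccnf fell by 1.88 on the log2 scale (SE 0.30, edgeR adjusted p = 0.0274), with no overlap between groups, and the KO libraries differed by 1.51-fold, less than for the other cyclin genes. Without heterozygous replicate 2 its log2 fold change was -1.57 (adjusted p = 0.155).

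The promoters of the genes with the large drops are shown because cell-cycle genes of this class are known to carry a CHR element, bound by the DREAM and MuvB complexes, beside CCAAT boxes bound by NF-Y. Promoter sequence was at hand in RefSeq (GRCm38.p6) for 6 of the 10 genes, and not for Ccna2, Cdc25c, Wee1 or Pkmyt1. Each line gives the 150 bases before the RefSeq transcript start in the direction of the gene, and capitals mark CHR (TTTGAA or TTTAAA) and CCAAT, each searched on both strands, so that ATTGG is CCAAT on the other strand.
Cdk1, chr10:69352913-69353062, minus strand: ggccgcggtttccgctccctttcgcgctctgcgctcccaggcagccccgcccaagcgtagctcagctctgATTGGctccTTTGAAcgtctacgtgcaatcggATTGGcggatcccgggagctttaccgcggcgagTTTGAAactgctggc
Ccnb1, chr13:100786487-100786636, minus strand: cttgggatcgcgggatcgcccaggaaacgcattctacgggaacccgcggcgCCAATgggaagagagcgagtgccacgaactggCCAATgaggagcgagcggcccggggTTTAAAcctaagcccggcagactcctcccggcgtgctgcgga
Ccnb2, chr9:70421555-70421704, minus strand: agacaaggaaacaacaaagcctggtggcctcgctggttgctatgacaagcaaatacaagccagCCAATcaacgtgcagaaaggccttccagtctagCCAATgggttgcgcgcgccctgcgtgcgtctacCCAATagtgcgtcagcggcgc
Ccnf, chr17:24251410-24251559, minus strand: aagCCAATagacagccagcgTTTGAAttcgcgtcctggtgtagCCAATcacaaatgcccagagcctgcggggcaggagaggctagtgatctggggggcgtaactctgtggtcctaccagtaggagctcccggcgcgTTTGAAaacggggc
Cdc25a, chr9:109875429-109875578, plus strand: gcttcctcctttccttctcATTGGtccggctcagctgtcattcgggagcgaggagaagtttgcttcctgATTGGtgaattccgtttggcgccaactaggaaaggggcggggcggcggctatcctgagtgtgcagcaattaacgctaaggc
Cdc25b, chr2:131186798-131186947, plus strand: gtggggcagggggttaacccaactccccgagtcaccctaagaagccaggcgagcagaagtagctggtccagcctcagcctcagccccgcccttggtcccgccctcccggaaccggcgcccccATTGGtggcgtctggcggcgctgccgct
For Ccnb2 a CHR match lies just past the start, in the 30 bases at chr9:70421535-70421564 on the minus strand.
Ccnb2 site: tcagcggcgcggtaTTTGAAtcgcggaccg

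In the full windows, from 250 bases before to 50 bases after the start, the CHR letters were found in 4 of the 6 promoters. These were the promoters of Cdk1, Ccnb1, Ccnb2 and Ccnf, the 4 of these 6 genes with the large differences. Ccna2, Cdc25c, Wee1 and Pkmyt1 had no sequence, and a relation between the letters and the size of the difference was not tested. The windows of Cdc25a and Cdc25b held none. CCAAT was found in all 6, and the E-box letters CACGTG in 0 of the 6. Of all 32851 RefSeq promoter windows of this length, 27.6% held the CHR letters, 37.4% held CCAAT, 10.7% held both and 7.15% held the E-box letters. CHR and CCAAT matches did not overlap each other in these windows. By GENCODE M21, Cdk1, Ccnb1 and Ccnf reach past the RefSeq start into the printed stretches, to 69352938, 100786570 and 24251484. The CHR matches at -15 (Cdk1), -42 (Ccnb1) and -14 (Ccnf) thus lie inside those annotated genes, as does the CCAAT match at -67 of Ccnb1. A match describes the letters and is not evidence of binding in these cells.

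**Figure D2:**
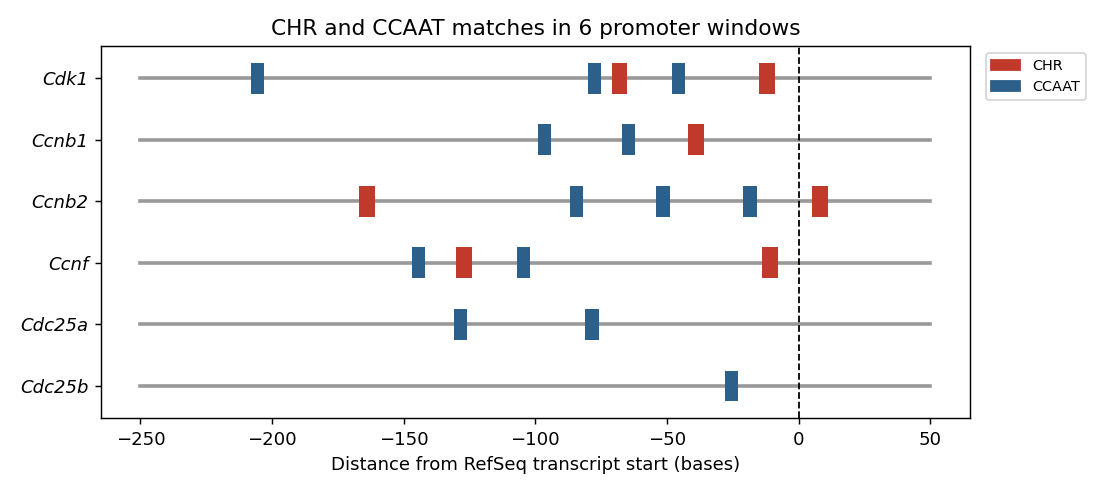
Positions of CHR and CCAAT matches on both strands in the 6 promoter windows, in bases from the RefSeq transcript start (dashed line). CHR matches appear in the windows of Cdk1, Ccnb1, Ccnb2 and Ccnf and not in those of Cdc25a and Cdc25b, while CCAAT appears in all 6.

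The CDC25 genes did not move together. Cdc25c (chromosome 18, 34732993 to 34751533, minus strand), whose protein acts at the entry into mitosis, had 39 and 107 counts in the KO libraries, against 377 and 469 counts in the heterozygous libraries. Its scaled level was 1.19 and 3.34 CPM against 9.73 and 14.2 CPM, with no overlap and a log2 fold change of -2.40 (SE 0.54, 95% interval -3.67 to -1.13, edgeR adjusted p = 0.0747). Cdc25c did not pass in this fit or by limma-voom (adjusted p = 0.0622). It passed by DESeq2 (adjusted p = 0.00073) and by edgeR with no filter (adjusted p = 0.0124). Exons of the gene model Gm3550 on the opposite strand cover 12.7% of the merged exons of Cdc25c.

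Cdc25a (chromosome 9, 109875579 to 109893895, plus strand), which also acts at the start of S phase, was at 45.3 and 65.5 CPM in the KO libraries, against 62.7 and 74.2 CPM in the heterozygous libraries. The groups overlapped, since KO replicate 2 lay above heterozygous replicate 1. Its log2 fold change was -0.30 with a 95% interval of -0.81 to 0.20 (edgeR adjusted p = 0.539), so a difference as large as that of Cdk1 lies outside the interval. Cdc25b (chromosome 2, 131186949 to 131198497, plus strand), thought to start CDK1 activation at the centrosome, was at 31.5 and 23.8 CPM in the KO libraries, against 29.5 and 39.8 CPM in the heterozygous libraries. Here KO replicate 1 was the higher of the KO libraries, and the log2 fold change was -0.32 with a 95% interval of -0.88 to 0.23 (edgeR adjusted p = 0.556).

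The inhibitory kinase genes had smaller differences and close replicates. Wee1 (chromosome 7, 110122046 to 110143286, plus strand), whose protein phosphorylates CDK1 in the nucleus, was at 13.7 and 13.2 CPM in the KO libraries, against 18.6 and 20.7 CPM in the heterozygous libraries. The groups did not overlap, but Wee1 did not pass (log2 fold change -0.54, SE 0.23, 95% interval -1.08 to -0.0062, edgeR adjusted p = 0.290, unadjusted p = 0.0480). Over the alternative fits and with each library left out, its log2 fold change ranged from -0.63 to -0.48 and its adjusted p from 0.262 to 0.792. Pkmyt1 (chromosome 17, 23726336 to 23736735, plus strand), whose protein sits on membranes of the ER and Golgi, was at 23.7 and 22.0 CPM in the KO libraries, against 42.8 and 39.8 CPM in the heterozygous libraries. Its log2 fold change was -0.86 (SE 0.18, 95% interval -1.28 to -0.43) and it lay just outside the threshold (edgeR adjusted p = 0.0625). Pkmyt1 passed by DESeq2 (adjusted p = 0.0021) and by edgeR with no filter (adjusted p = 0.0289). It did not pass by limma-voom (adjusted p = 0.0622) or with a replicate block (edgeR adjusted p = 0.0659). Exons of Paqr4 on the opposite strand cover 8.76% of the merged exons of Pkmyt1.

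**Figure D3:**
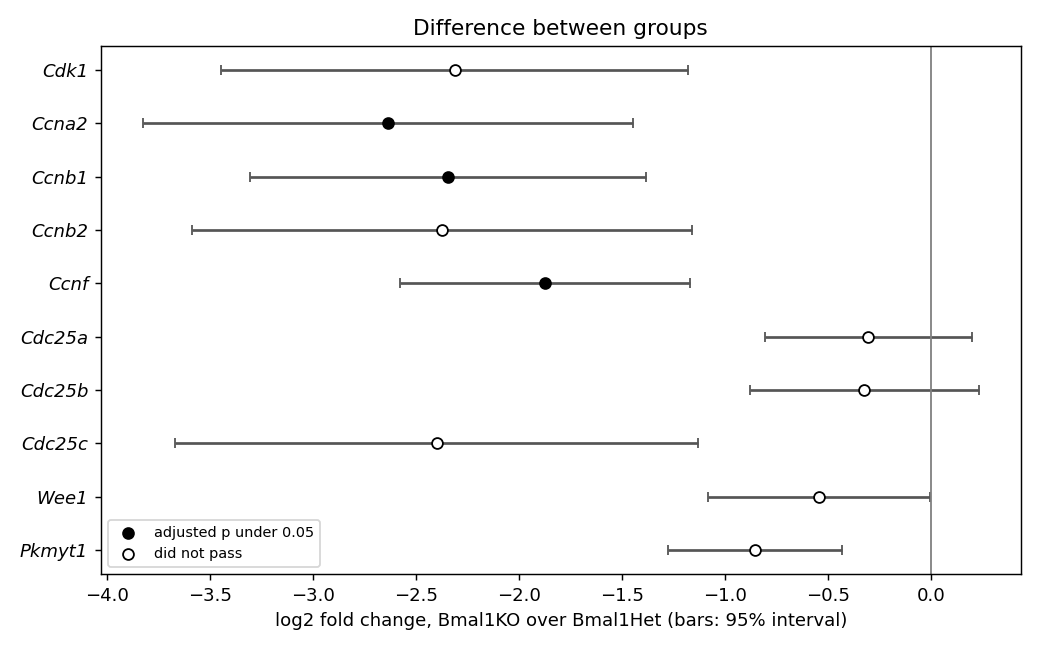
Log2 fold change of each gene, Bmal1KO over Bmal1Het, from edgeR's quasi-likelihood fit, with bars for the 95% interval and filled points for an adjusted p under 0.05. The points of Cdk1, the cyclin genes and Cdc25c lie between -2.64 and -1.88, and those of Cdc25a, Cdc25b, Wee1 and Pkmyt1 between -0.86 and -0.30.

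Beside Wee1, the clock genes moved in both directions. Of the 4 genes for BMAL1, CLOCK and their paralogs, Arntl and Npas2 rose (log2 fold changes 1.89 and 3.14) and 2 did not pass. Of 12 textbook E-box genes tested, 4 rose, 2 fell and 6 did not pass, with a median log2 fold change of 0.47. At an unadjusted p under 0.05, and also by DESeq2, 5 of the 12 were higher and 4 lower, and by limma-voom 4 were higher and 2 lower. Without heterozygous replicate 2, 0 of these rose and 2 fell, and the median was 0.68 without KO replicate 1 and 0.17 without KO replicate 2. Cry1, a repressor of BMAL1 and CLOCK, was at 147 and 194 CPM in the KO libraries, against 44.7 and 51.9 CPM in the heterozygous libraries (log2 fold change 1.82, edgeR adjusted p = 0.0129). Nr1d2, which encodes REV-ERBβ, was at 5.27 and 9.65 CPM against 64.4 and 51.6 CPM (log2 fold change -2.96, edgeR adjusted p = 0.0129). Cry2, a paralog of Cry1, rose too (1.006, edgeR adjusted p = 0.0178). The value of Wee1, -0.54, lay between these. Wee1 and the clock genes share all 4 libraries, and no relation between them was tested.

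Ratios within a library do not depend on the scaling between libraries, so each member was also set against Cdk1 and against the proliferation marker Mki67, with 3 added to each count. For every Cdk1 read the KO libraries held 2.54 and 0.781 Wee1 reads, against 0.379 and 0.337 in the heterozygous libraries. For Pkmyt1 the ratio to Cdk1 was 4.36 and 1.30 in the KO libraries, against 0.872 and 0.649. For Cdc25a it was 8.34 and 3.86, against 1.28 and 1.21, and for Cdc25b 5.80 and 1.40, against 0.600 and 0.648. Relative to Cdk1, these 4 genes were thus higher in both KO libraries than in either heterozygous library, by 1.98, 1.66, 2.19 and 2.19 on the log2 scale in the order given, and KO replicate 1, which had the least Cdk1 RNA, had the highest ratios. The size of these differences depended on the KO library: for Wee1 it was 1.13 without KO replicate 1 and 2.83 without KO replicate 2, for Pkmyt1 0.79 and 2.54, for Cdc25a 1.64 and 2.75, and for Cdc25b 1.17 and 3.22. The mean log2 ratios of Ccnb1, Ccnb2 and Cdc25c to Cdk1 differed between groups by 0.12, -0.074 and 0.018, with overlapping libraries. For Ccnb1 the KO libraries alone spanned ratios of 0.402 and 0.263, against 0.325 and 0.277 in the heterozygous libraries. Ccnf had ratios of 1.51 and 0.730 in the KO libraries, against 0.611 and 0.732, which overlap. Ccna2 was lower relative to Cdk1, by a difference of -0.34, with ratios of 0.771 and 0.811 in the KO libraries, against 0.977 and 1.02 in the heterozygous ones. With 2 libraries against 2, a 2-sided exact permutation test cannot give a p below 0.333, which each of these 5 non-overlapping ratios reached (adjusted p = 0.633 over 19 ratios), so none could pass.

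**Figure D4:**
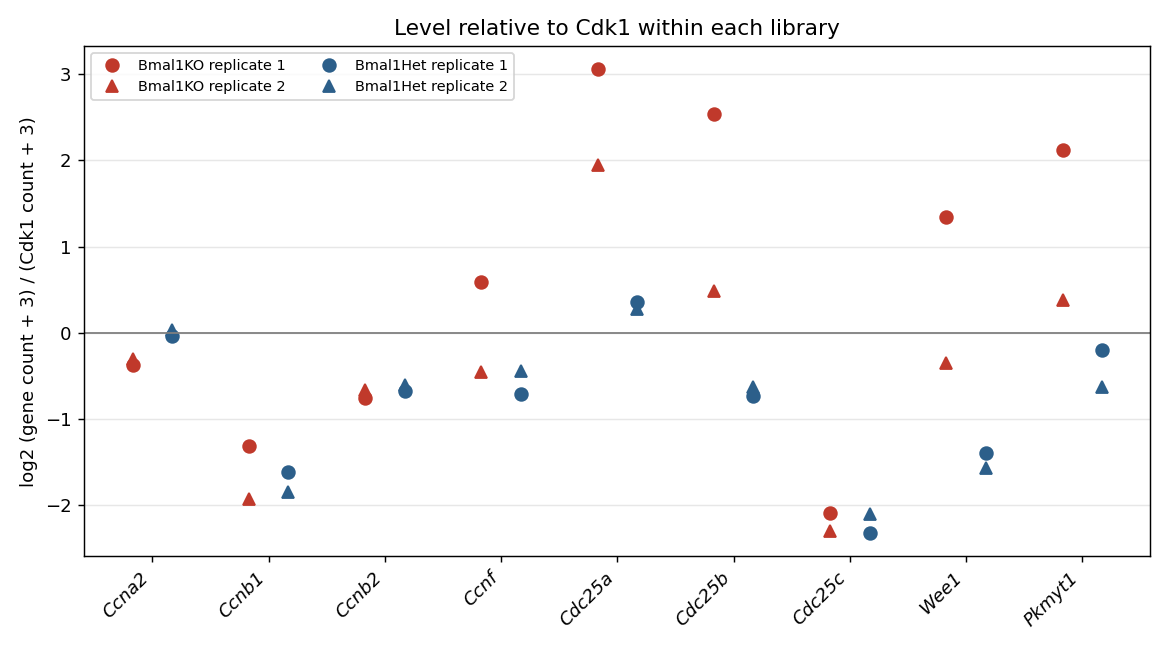
Log2 ratio of each gene's count to the Cdk1 count, with 3 added to each, in each library, with Bmal1KO to the left of Bmal1Het. Cdc25a, Cdc25b, Wee1 and Pkmyt1 lie higher in both KO libraries, and Ccnb2 and Cdc25c sit at nearly the same ratio in all 4 libraries.

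Mki67, the denominator of the second set of ratios, is a marker of cycling cells. It was at 20.2 and 31.7 CPM in the KO libraries, against 98.4 and 156 CPM in the heterozygous libraries (log2 fold change -2.29, edgeR adjusted p = 0.0175). Top2a, the topoisomerase gene of dividing cells, was at 14.0 and 35.7 CPM against 120 and 148 CPM (-2.44, adjusted p = 0.0297). Pcna, the replication clamp gene, was at 11.8 and 12.1 CPM against 14.997 and 16.2 CPM and did not pass (-0.39, adjusted p = 0.494). Set against Mki67, the log2 ratios of Cdk1, Ccna2, Ccnb1, Ccnb2 and Cdc25c differed between groups by -0.57 to -0.11 with overlapping libraries. Those of Ccnf, Cdc25a, Cdc25b, Wee1 and Pkmyt1 were higher in both KO libraries, by 0.42, 1.96, 1.97, 1.75 and 1.43.

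The KO libraries differed from each other most for the genes with the large drops. KO replicate 2 was above KO replicate 1 by more than 2-fold for 5 genes: 3.38-fold for Ccnb2, 3.33-fold for Ccna2, 3.15-fold for Cdk1, 2.81-fold for Cdc25c and 2.08-fold for Ccnb1. The same ratio was 2.55 for Top2a and 1.57 for Mki67. It was 0.960 for Wee1, 0.928 for Pkmyt1 and 0.754 for Cdc25b. Between the heterozygous libraries none of the 10 genes differed by 2-fold, and the ratio of replicate 2 to replicate 1 lay between 0.930 and 1.499. KO replicate 2 is also the library with the high immune, stromal and other endocrine sums given above, and KO replicate 1 the one with the lowest Xist. With either KO library left out the log2 fold changes of Cdk1, the cyclin genes and Cdc25c lay between -3.75 and -1.63.

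**Figure D5:**
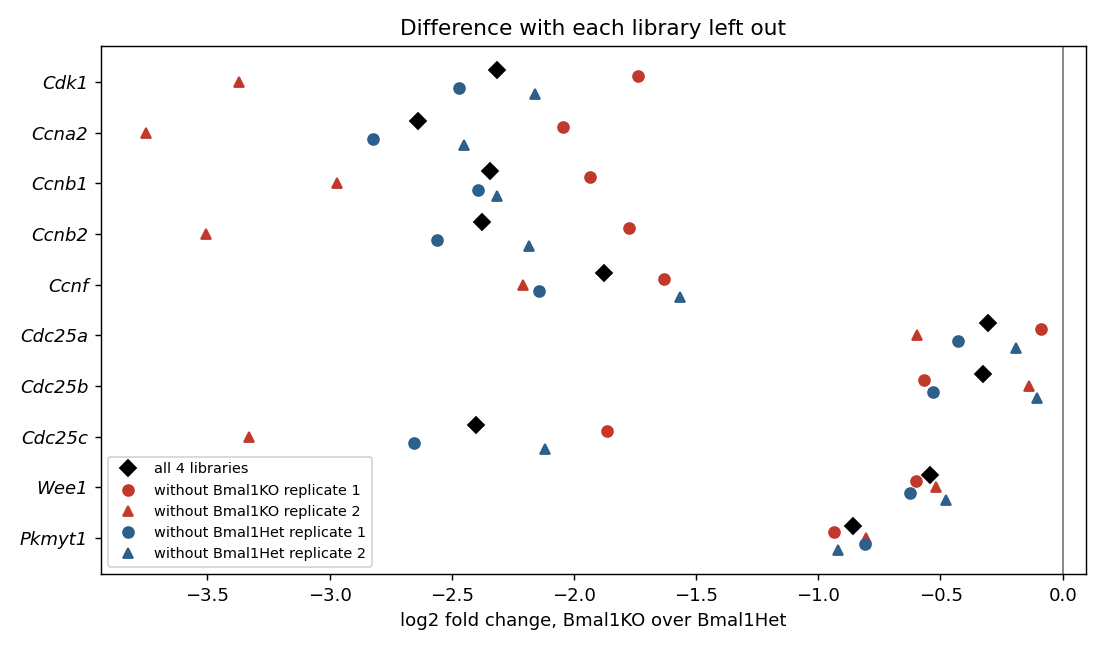
Log2 fold change of each gene, Bmal1KO over Bmal1Het, with all 4 libraries (diamonds) and with each library left out. Leaving out a KO library moves Cdk1, Ccna2, Ccnb1, Ccnb2 and Cdc25c the most, Wee1 stays between -0.63 and -0.48, and no gene changes sign.

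The order of the genes by level, in CPM per kilobase of merged exons, also differed between the groups. In the KO libraries Cdc25b (mean 7.41), Cdc25a (6.91) and Pkmyt1 (6.27) led, followed by Ccnb2 (4.48), Wee1 (3.93), Cdk1 (2.25), Ccna2 (2.18), Ccnf (1.31), Ccnb1 (0.767) and Cdc25c (0.460). In this order the ranges of neighbours overlapped except between Wee1 and Cdk1 and between Ccnf and Ccnb1. In the heterozygous libraries Ccnb2 (23.2 CPM per kilobase) and Ccna2 (13.6) led, then Pkmyt1 (11.3), Cdk1 (11.2), Cdc25b (9.28), Cdc25a (8.53), Wee1 (5.74), Ccnf (4.81), Ccnb1 (3.90) and Cdc25c (2.43). There the ranges of neighbours overlapped from Pkmyt1 to Cdc25a and from Wee1 to Ccnb1, and the other neighbours were separate. Summed as CPM without length, the 4 cyclin genes held 17.5 and 40.9 CPM in the KO libraries, against 125 and 165 CPM, and Wee1 with Pkmyt1 held 37.4 and 35.1 CPM, against 61.4 and 60.5 CPM.

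Profiles over the 4 libraries were compared by the root mean square difference of log2 CPM, each gene centred on its own mean. Among the members, Cdk1 was closest to Ccnb2 (0.054), Cdc25c (0.11) and Ccna2 (0.17), and Wee1 to Pkmyt1 (0.18), Cdc25b (0.19) and Cdc25a (0.24), while Cdk1 and Wee1 were 1.16 apart. Of 10215 other genes at a mean of 5 CPM or more, leaving out symbols that start with Gm and a number or end in Rik, those nearest to Cdk1 were Plk1 (0.078), Nusap1 (0.084), Bub1 (0.11), Top2a (0.11) and Spag5 (0.13). Those nearest to Wee1 were Dym (0.020), Irgq (0.020), Nans (0.021), Pla2g2f (0.022) and Bicd1 (0.024). These distances rest on 4 libraries and are given as a description.

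The wider CDK1 pathway was read from 6 lists of 82 genes, of which 80 were tested: 4 fell, 1 rose and 75 did not pass, with a median log2 fold change of -0.16. Among 12 genes of the kinases and phosphatases that act on CDK1, WEE1 or CDC25, Aurka, which activates PLK1 before mitosis, fell to 6.63 and 9.05 CPM in the KO libraries, against 38.4 and 43.5 CPM in the heterozygous libraries (log2 fold change -2.38, edgeR adjusted p = 0.0129), and 11 did not pass. Plk1, the kinase that turns on CDC25 and marks WEE1 for destruction, was at 3.74 and 10.7 CPM against 31.1 and 43.5 CPM and did not pass (-2.37, adjusted p = 0.0522). The 5 PP1 and PP2A subunit genes of the same list had log2 fold changes of -0.18 (Ppp1ca), -0.031 (Ppp2r1a), 0.17 (Ppp2ca), 0.18 (Ppp2r2a) and 0.31 (Ppp2r2d). In the list of 12, 3 were lower at an unadjusted p under 0.05, 2 by DESeq2 and 2 by limma-voom.

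Of 25 genes of the ubiquitin ligases that destroy cyclins, CDC25 and WEE1, 2 fell and 23 did not pass. Cdc20, an activator of the anaphase-promoting complex, was at 10.1 and 20.2 CPM in the KO libraries, against 73.5 and 87.4 CPM in the heterozygous libraries (-2.41, edgeR adjusted p = 0.0175), and Ube2c, which supplies it with ubiquitin, at 4.41 and 9.43 CPM against 30.3 and 52.0 CPM (-2.57, adjusted p = 0.0287). The median of this list was -0.065, and 4 of its genes were lower at an unadjusted p under 0.05, 3 by DESeq2 and 2 by limma-voom. Of 15 genes for factors that bind G2/M promoters, Foxm1 fell to 7.73 and 11.8 CPM, against 45.1 and 50.6 CPM in the heterozygous libraries (-2.29, edgeR adjusted p = 0.0134), and 14 did not pass. In this list of 15, 4 were lower at an unadjusted p under 0.05, 3 by DESeq2 and 1 by limma-voom.

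Ccnh, which encodes the cyclin of the kinase that activates CDK1, was the 1 of these genes that rose, to 94.1 and 81.6 CPM in the KO libraries, against 45.9 and 45.9 CPM in the heterozygous libraries (log2 fold change 0.94, edgeR adjusted p = 0.0310), and 4 of its list of 5 did not pass. Without KO replicate 1, heterozygous replicate 1 or heterozygous replicate 2, 0 genes of the 6 lists and the 3 proliferation markers rose. The partner of Ccnh in that complex, Cdk7, was at 62.1 and 72.8 CPM against 67.1 and 67.1 CPM (log2 fold change 0.0073). Cks1b and Cks2, the CKS adaptor genes of the same list, were lower without overlap but did not pass. Their log2 fold changes were -1.04 and -2.35 (edgeR adjusted p = 0.122 and 0.187), with only 13 and 17 Cks2 counts in the KO libraries. Of the list of 5, 2 were lower at an unadjusted p under 0.05, 1 by DESeq2 and 0 by limma-voom. None of 14 checkpoint genes passed edgeR's test or limma-voom; 3 were lower and 2 higher at an unadjusted p under 0.05, and the same numbers by DESeq2. Clspn, an adaptor of the checkpoint kinase CHEK1, came closest, at 0.609 and 0.780 CPM against 4.36 and 4.24 CPM (-2.62, edgeR adjusted p = 0.0656). It had only 20 and 25 counts in the KO libraries. Cdkn1a of the same list was nearly as close on the higher side, at 105 and 91.4 CPM against 60.1 and 43.1 CPM (0.93, edgeR adjusted p = 0.0664). Of the 9 tested among 11 other genes, namely cyclins, CDKs and the WEE1 paralog Wee2, 0 passed by edgeR or limma-voom, 6 were lower at an unadjusted p under 0.05 and 2 by DESeq2. Ccnd2, a D-type cyclin gene, came closest, at 679 and 670 CPM against 954 and 1124 CPM (-0.62, edgeR adjusted p = 0.0771). Stromal and immune sums differed between the same libraries, as given above, and so did 11 immediate early genes, of which 5 rose (among them Fos, Junb and Ier2) and 6 did not pass, and 1 rose without heterozygous replicate 1 and 0 without heterozygous replicate 2; their part in these results was not tested. Without heterozygous replicate 2, 0 genes of the 6 lists and the 3 proliferation markers fell, against 6 with all libraries.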

How the data were processed

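RNA was measured in 4 libraries of sorted mouse β-cells, grouped by the sample titles. The authors deposited raw whole-number counts for each gene symbol. Per the labels' protocols, RNA was extracted with RNeasy Plus Micro and amplified with SMART-Seq v4. STAR, edgeR and mm10 appear in the submitters' processing notes, without roles; no source used here names the counter, strand setting or annotation. The authors' scaled table was not used.

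Low genes were removed by filterByExpr with a minimum count of 10 and a minimum total of 15. TMM-scaled libraries were fitted with edgeR 4.0.16 (glmQLFit and glmQLFTest, group as the only term, 2-sided, Benjamini-Hochberg over all 14649 genes) in R 4.3.3. SE is the absolute log2 fold change over the root of F, and 95% intervals use the moderated degrees of freedom. Replicates differed by more than sampling noise (chi-square per degree of freedom 63.9 for KO, 42.9 for heterozygous). Coordinates and exon lengths come from GENCODE M21 (GRCm38). Alternatives were other scalings and filters, DESeq2 1.42.0, limma-voom (limma 3.58.1), a replicate block and each library left out.

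The members and lists were chosen with earlier results of these data known. Outside the members, the naming rule gave Arntl, Mki67, Top2a and Pcna, at most 3 called genes from a list (or its 1 gene nearest to a call) and the 5 nearest profiles to Cdk1 and to Wee1. Xist, Ddx3y, Eif2s3y, Cdk7, Cks1b, Cks2, Cdkn1a, Plk1 in its list, the PP1 and PP2A genes, Amy2a5 and genes with overlapping exons were named after their values were seen.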

Additional observations from a re-analysis of the deposited data

How the results depend on the processing

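All 10 members kept a lower level in the KO libraries in every alternative run. The number of members called lower was 3 in the reported fit, and 7 with no filter, with a mean of 5 CPM or more, by DESeq2 or at an adjusted p of 0.1, 6 with a replicate block and 5 by limma-voom; with 1 library left out it ranged from 0 to 6. Called higher were 0 throughout these. Over all genes, 196 were lower and 176 higher. No filter gave 378 lower and 430 higher, DESeq2 560 and 619, an adjusted p of 0.1 350 and 378, and 1 library left out 8 to 422 and 17 to 404. A mean of 5 CPM gave 266 higher and the replicate block 313 higher. Of pathway and proliferation genes 6 were lower and 1 higher; no filter gave 12 and 3, DESeq2 16 and 3, an adjusted p of 0.1 11 and 3, a mean of 5 CPM 2 higher and the replicate block 2 higher, and 1 library left out 0 to 12 and 0 to 1. Across all tested genes, samples that share a replicate number did not deviate together (correlation -0.019), so the reported fit does not take the number as a pairing. Among the members, replicate 2 lay above replicate 1 in both groups for Cdk1 (3.15-fold and 1.25-fold), the cyclin genes, Cdc25a and Cdc25c. It lay below in both for Pkmyt1, and the groups differed in direction for Wee1 and Cdc25b. With the replicate block the SE of Cdk1 was 0.33, against 0.48. A pairing of these genes was not tested. Without heterozygous replicate 2, 0 members passed. A fit without 1 library has a single library in that group, which is assumed to vary like the other group. The causes were not tested.

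Small within-library ratios changed sign. With 0.5 in place of 3 added to each count, the log2 ratio of Cdc25c to Cdk1 differed by -0.023 between groups. With 1 library left out, the differences ranged from -0.19 to 0.42 for Ccnb1 to Cdk1 (reported 0.12) and from -0.092 to 0.13 for Cdc25c to Cdk1 (reported 0.018). Set against Mki67 they ranged from -0.73 to 0.27 for Cdk1, -0.40 to 0.17 for Ccnb1, -0.84 to 0.24 for Ccnb2 and -0.60 to 0.18 for Cdc25c. The other ratios kept their sign in these alternatives, but with 1 library left out they ranged from 0.13 to 1.17 for Ccnf to Cdk1 (reported 0.65), from 0.79 to 2.54 for Pkmyt1 to Cdk1 (reported 1.66) and from -1.10 to -0.034 for Ccna2 to Mki67 (reported -0.57). Depth limits Cdc25c and Ccnb1 most, at 39 and 69 counts in KO replicate 1.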
